A study of Mus musculus with 9 samples.

Results

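Interleukin receptor subunits are the cell surface chains, and a few soluble ones, through which a cell senses interleukins. The 35 genes described here were chosen by name: their probe sets carry a single gene symbol that starts with Il, a number and r, and the IL-1 receptor antagonist Il1rn was left out. They are 35 of 19938 genes measured, and where a gene had several probe sets the brightest one stands for it. Levels are log2 values from robust multi-array averaging (RMA), so a difference of 1 is a doubling, and levels of different genes are not compared because each probe set has its own brightness.

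RNA came from 3 sorted cell populations of mice that all carried the genotype CX3CR1 gfp+/-, in which 1 copy of the fractalkine receptor gene is replaced by a green fluorescent protein (GFP) reporter. There were 3 arrays, labelled as biological replicates, for each of T cell zone macrophages of the lymph node (TZM), microglia of the brain and CD8a+DC, the dendritic cells known for cross-presentation. The gate for TZM took MertK+ CD11b+ cells with high GFP that lacked CD169. The gate for microglia took CD11b+ CD45+ brain cells with high GFP, and that for the DC took CD64- cells that were CD8+ and high in CD11c and MHC class II. The labels name the lymph node as the source of the DC in the sample fields and the spleen in the sorting protocol, and age, sex and the number of animals behind an array are not given in the sources used here.

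Most interleukin receptors are assembled from a private chain that binds 1 cytokine and a shared chain that signals for several, such as the common gamma chain, gp130 or the IL-10 receptor beta chain. Type I and II chains signal through JAK kinases and STAT factors, the IL-1 family chains through MyD88, and the IL-17 chains through the adaptor Act1. Macrophages and dendritic cells respond to IL-4, IL-6 and IL-10 in particular, and some chains (the decoy IL-1 receptor, the IL-22 binding protein) only capture their ligand.

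Marker genes went with the labels, though not all were confined to 1 population. All 10 macrophage markers were higher in TZM than in CD8a+DC, 9 of 10 CD8a+DC markers were lower, and all 7 measured microglia markers were lower in TZM than in microglia. Some of these genes encode sort markers, and for those the gates favoured the result. Of the 7 microglia markers, 4 were also higher in TZM than in CD8a+DC, P2ry12 and Tmem119 among them. Of the 10 CD8a+DC markers, 2 (Clec9a and Itgax) were higher and 1 (Tlr3) lower in TZM than in microglia. Among markers of other cells, 2 of 8 neutrophil genes, 1 of 6 NK and innate lymphoid genes, 1 of 6 mast cell and basophil genes (Mcpt4) and 2 of 7 endothelial and stromal genes (Cdh5 and Ccl19) were higher in TZM than in each of the other populations. All 3 measured plasmacytoid DC genes (Ccr9, Cox6a2 and Pacsin1) were higher in CD8a+DC than in TZM. Of 3 measured monocyte genes, Plac8 was higher in CD8a+DC (mean 10.60) than in TZM (6.39). Plac8 and Ccr2 were higher in TZM than in microglia. The choroid plexus transcript Ttr averaged 4.23 ± 0.20 in TZM (SD, n = 3) and had levels of 12.15, 5.48 and 11.83 in microglia. Averaged over 13 immediate early genes, which are induced quickly when cells are handled, the level was 9.43 to 9.83 in TZM, 11.25 to 11.36 in microglia and 10.22 to 10.28 in CD8a+DC.

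Of the 35 receptor genes, 12 differed between at least 1 pair of populations with a Benjamini-Hochberg adjusted p under 0.05 (limma) and a log2 fold change of 1 or more in either direction. Such genes are referred to as called. The share of all genes called in at least 1 comparison was not computed, and the shares below are for each comparison. Between TZM and CD8a+DC 6 were called, 5 higher and 1 lower in TZM, or 17.1% of the receptor genes beside 8.74% of all genes (4.71% higher and 4.03% lower). Between TZM and microglia 6 were called, 3 higher and 3 lower in TZM, again 17.1%, beside 7.65% of all genes (4.25% higher and 3.4% lower). Between microglia and CD8a+DC 8 were called, 5 higher and 3 lower in microglia, or 22.9%, beside 11.2% of all genes (5.15% higher and 6.01% lower). The median log2 fold change of the receptor genes was 0.08, 0.05 and 0.00 in these comparisons, against 0.02, 0.01 and 0.01 over all genes. With the adjusted p alone and no fold minimum, 12 receptor genes passed between TZM and CD8a+DC (20.2% of all genes did), 12 between TZM and microglia (19.4%) and 11 between microglia and CD8a+DC (25.1%). The comparisons share arrays, so their counts are not independent. In bulk RNA of a sorted population, fewer cells with a transcript and less transcript per cell cannot be told apart.

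Among the 12 called genes the highest mean was in TZM for Il22ra2, Il2rb, Il12rb2, Il10rb, Il13ra1 and Il21r. That mean was in microglia for Il1rl2, Il6ra, Il7r and Il17ra, and in CD8a+DC for Il15ra and Il1r2. In the receptor families, IL-10 family chains gave 2 of the 5 genes higher in TZM than in CD8a+DC and common gamma chain receptors another 2. No gene was called in all 3 comparisons, 8 were called in 2 and 4 in 1. The corresponding shares of all genes were not computed.

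**Figure D1:**
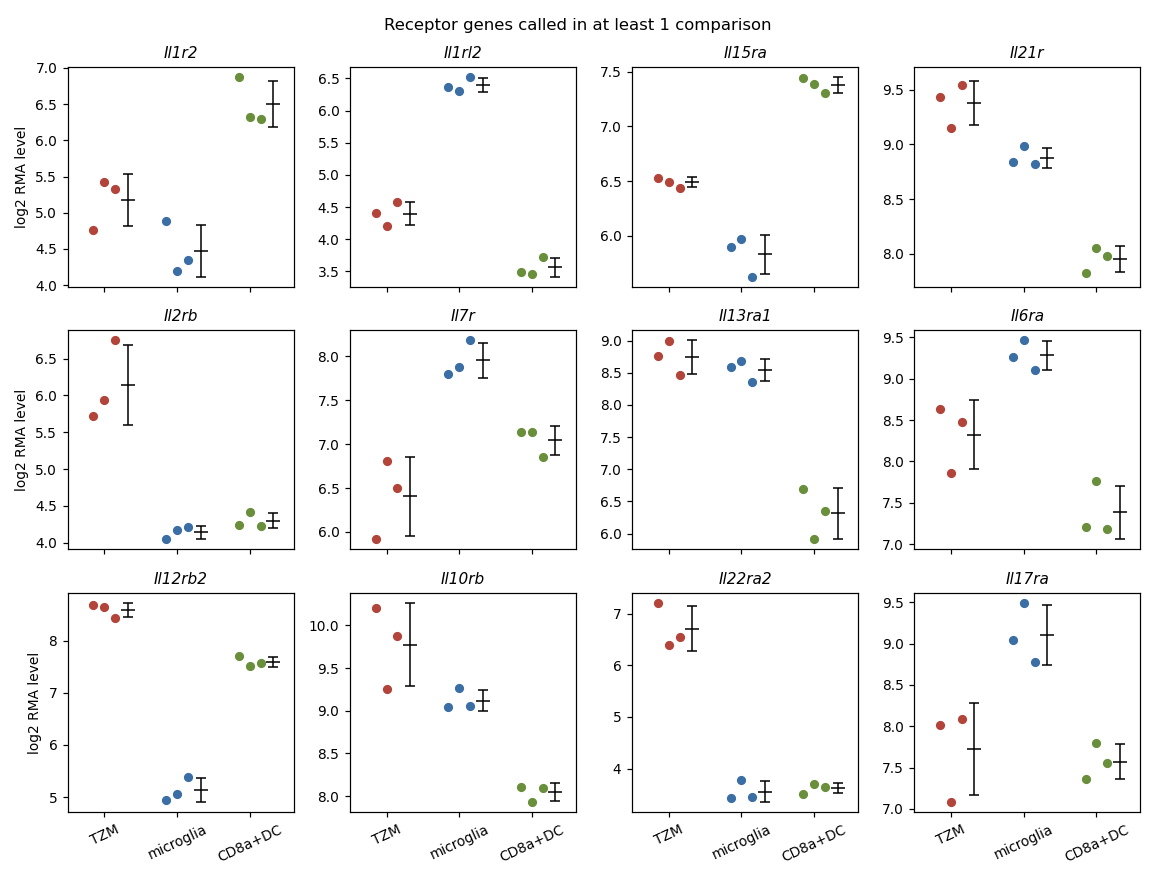
Log2 RMA level (y axis, own scale in each panel) of the 12 called receptor genes in the 3 arrays each of TZM, microglia and CD8a+DC (x axis), with replicates 1 to 3 from left to right. Black bars give the mean and SD. The Il22ra2 panel has TZM arrays at 6.39 to 7.21 above all others, and the Il12rb2 panel has microglia at 4.95 to 5.39 below all others.

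**Figure D2:**
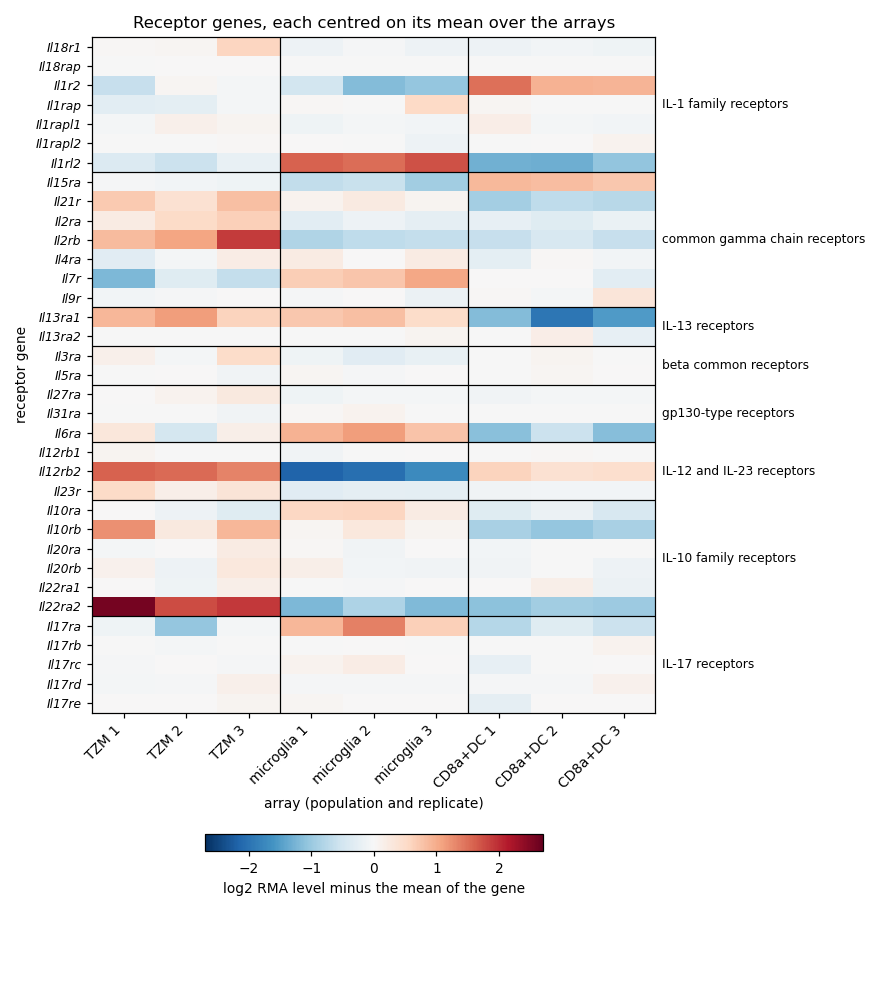
All 35 receptor genes (rows, grouped by receptor family) in the 9 arrays (columns), coloured by the log2 RMA level minus the mean of that gene over the arrays. Rows that stay near white are genes that hardly differ between arrays: for 22 of the 35 genes the highest and lowest array lie less than 1 apart. The share of all genes that vary so little was not computed.

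**Figure D3:**
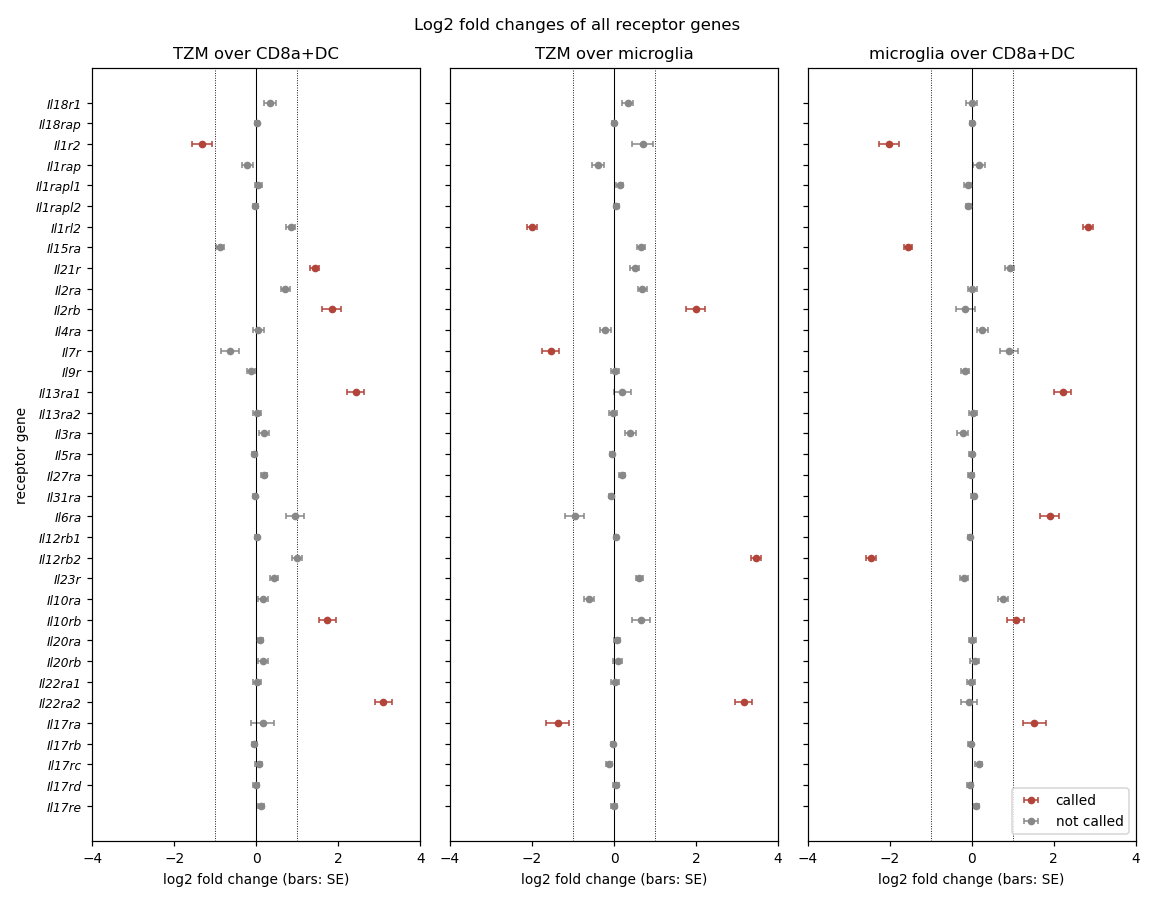
Log2 fold change (x axis, bars give the SE) of each receptor gene (y axis) in the 3 comparisons, in red where called and in grey where not. Dotted lines mark a log2 fold change of 1 in either direction. Il12rb2 over microglia, at 3.45, lies farthest to the right, and Il12rb2 in microglia over CD8a+DC, at -2.46, farthest to the left.

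Promoters are shown for the called genes with a match to the dimer site of STAT factors, the DNA-binding effectors of many of these receptors. The sequences are the 250 bases before the annotated start, 5′ to 3′ on the strand of the gene, from RefSeq (GRCm38.p6), with the matching bases in capitals.
Il12rb2 (chr6:67376189-67376438, minus strand): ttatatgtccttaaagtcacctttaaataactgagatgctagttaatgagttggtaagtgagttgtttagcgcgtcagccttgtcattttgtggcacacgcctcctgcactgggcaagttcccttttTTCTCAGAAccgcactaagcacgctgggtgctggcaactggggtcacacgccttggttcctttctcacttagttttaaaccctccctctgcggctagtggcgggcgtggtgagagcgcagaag
Il1r2 (chr1:40085843-40086092, plus strand): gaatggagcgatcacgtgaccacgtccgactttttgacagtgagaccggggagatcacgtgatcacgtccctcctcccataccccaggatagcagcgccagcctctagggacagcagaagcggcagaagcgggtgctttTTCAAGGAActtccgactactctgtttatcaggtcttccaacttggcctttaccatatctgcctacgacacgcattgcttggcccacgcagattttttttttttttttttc
Il7r (chr15:9529877-9530126, minus strand): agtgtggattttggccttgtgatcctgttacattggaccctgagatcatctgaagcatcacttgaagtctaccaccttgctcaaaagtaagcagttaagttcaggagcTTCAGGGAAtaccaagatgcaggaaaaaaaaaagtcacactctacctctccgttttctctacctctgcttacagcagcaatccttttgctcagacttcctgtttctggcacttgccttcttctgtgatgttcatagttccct
The motif searched was TTCNNNGAA, which reads the same on both strands, and 7.02% of all 32851 promoter windows of this length hold it. The match lies 123 to 115 bases before the start of Il12rb2, 111 to 103 bases before that of Il1r2 and 142 to 134 bases before that of Il7r. Windows were matched for 28 of the 35 genes, 8 of the 12 called ones among them. These 3 are all the called genes with a match, and the uncalled genes Il18r1 and Il31ra hold the motif too. In all, 5 of 31 windows of receptor genes hold it, and enrichment was not tested. Il12rb2 was highest in TZM, Il1r2 in CD8a+DC and Il7r in microglia, so the 3 called genes with the motif have no common pattern of levels. A match is a description of the letters in the window, and no binding was measured.

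The IL-22 binding protein gene Il22ra2 was high in TZM alone. Its product is a soluble receptor that captures IL-22 and keeps it from the membrane receptor. Il22ra2 was at 7.21, 6.39 and 6.54 in the TZM arrays, 3.42, 3.79 and 3.45 in the microglia arrays and 3.51, 3.69 and 3.65 in the CD8a+DC arrays. Every TZM array lay above every other array by more than 2.5, and microglia and CD8a+DC overlapped. The log2 fold change in TZM was 3.09 over CD8a+DC (SE 0.20, adjusted p = 1e-05) and 3.16 over microglia (SE 0.20, adjusted p = 1.1e-05). Between microglia and CD8a+DC the difference was -0.07 (95% interval -0.53 to 0.40). The chain that forms the membrane receptor for IL-22, Il22ra1, stayed between 4.68 and 4.99 in all 9 arrays.

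The other IL-10 family chains split into 2 broadly present chains and flat ones. Il10ra, the private chain for IL-10, was at 9.85, 9.69 and 9.51 in TZM, 10.40, 10.41 and 10.06 in microglia and 9.51, 9.67 and 9.39 in CD8a+DC. All arrays were near the same level, with microglia slightly above and TZM and CD8a+DC overlapping. The difference passed the adjusted p but not the fold minimum for microglia over CD8a+DC (0.76, SE 0.13, adjusted p = 0.0022) and for TZM over microglia (-0.61, SE 0.13, adjusted p = 0.01).

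Il10rb encodes the partner chain, which IL-10 shares with IL-22 and the lambda interferons. It was at 10.21, 9.25 and 9.87 in TZM, 9.04, 9.26 and 9.06 in microglia and 8.11, 7.93 and 8.10 in CD8a+DC. Both macrophage populations lay above every CD8a+DC array, and they overlapped each other through TZM replicate 2. Il10rb was higher in TZM than in CD8a+DC by 1.73 (SE 0.21, adjusted p = 0.00046) and in microglia than in CD8a+DC by 1.07 (SE 0.21, adjusted p = 0.0054). The 0.66 between TZM and microglia was not called (95% interval 0.17 to 1.14, adjusted p = 0.066). Il20ra ranged from 3.50 to 3.81 and Il20rb from 6.46 to 6.88 over all arrays, and neither was called.

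IL-12 is received by a pair of chains, the signalling chain Il12rb2 and the chain Il12rb1 that is shared with IL-23. Il12rb2 separated the lymphoid tissue cells from the brain cells. It was at 8.69, 8.64 and 8.43 in TZM, 4.95, 5.06 and 5.39 in microglia and 7.70, 7.51 and 7.57 in CD8a+DC. The 3 populations did not overlap, and microglia lay more than 2 below both others. The log2 fold change was 3.45 for TZM over microglia (SE 0.12, adjusted p = 3.6e-07) and -2.46 for microglia over CD8a+DC (SE 0.12, adjusted p = 1.4e-06). TZM stood above CD8a+DC by 0.99 (SE 0.12, adjusted p = 0.00049), just under the fold minimum. Without TZM replicate 3 that difference was 1.07 and without CD8a+DC replicate 1 it was 1.05, both called.

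The partner chain showed none of this, but at a low level. Il12rb1 was between 4.61 and 4.78 in all 9 arrays, with population means of 4.73 ± 0.05 in TZM, 4.67 ± 0.05 in microglia and 4.71 ± 0.02 in CD8a+DC (SD, n = 3 each). The 95% interval for TZM over microglia was -0.07 to 0.18. All 9 arrays lay below the array medians over all genes (4.90 to 5.02), and arrays of all 3 populations shared the value 4.70. The small spread and narrow interval therefore do not show that the transcript was equal in the populations. Il23r, the private chain for IL-23, lies next to Il12rb2 on chromosome 6, with population means of 3.79 in TZM, 3.18 in microglia and 3.37 in CD8a+DC. Its differences of 0.61 over microglia (adjusted p = 0.0013) and 0.43 over CD8a+DC (adjusted p = 0.0091) passed the adjusted p at a low level but not the fold minimum. The ligand subunit gene Il12b was at 6.35, 6.35 and 6.35 in TZM, 5.35, 4.93 and 5.18 in microglia and 10.62, 10.41 and 10.61 in CD8a+DC. The 3 TZM values were all 6.3483 (SD 0), so they give no measure of the spread within TZM. Il12b was highest in CD8a+DC, with log2 fold changes of -4.20 for TZM (SE 0.11, adjusted p = 6.2e-08) and -5.40 for microglia (SE 0.11, adjusted p = 8.1e-09) over CD8a+DC. The kinases that IL-12 receptors use, Jak2 and Tyk2, were lower in TZM than in CD8a+DC by 1.54 and 1.39 on the log2 scale.

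Receptors that pair with the common gamma chain went in different directions. Il2rb, the beta chain of the IL-2 and IL-15 receptors, was at 5.72, 5.93 and 6.75 in TZM, 4.05, 4.17 and 4.22 in microglia and 4.25, 4.42 and 4.23 in CD8a+DC. All TZM arrays lay above all others, with replicate 3 highest. The log2 fold change in TZM was 1.83 over CD8a+DC (SE 0.23, adjusted p = 0.00053) and 1.99 over microglia (SE 0.23, adjusted p = 0.00038). Il2ra, the alpha chain, was at 3.74, 4.03 and 4.17 in TZM, 3.23, 3.37 and 3.26 in microglia and 3.28, 3.19 and 3.34 in CD8a+DC. It stood apart in TZM too, by 0.71 over CD8a+DC (adjusted p = 0.0017) and 0.69 over microglia (adjusted p = 0.0021), under the fold minimum and near the low end of the scale.

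Some lymphocyte markers were also higher in TZM. Of 6 NK and innate lymphoid markers only Gzma was called, over both other populations. Under the fold minimum, Ncr1 (0.64, limma adjusted p = 0.0065) and Klrb1c (0.37, limma adjusted p = 0.0063) were also higher in TZM than in CD8a+DC. Gata3, Eomes and Prf1 did not pass the adjusted p. Of 5 measured T cell markers, none was called over CD8a+DC and 2 were called over microglia (Cd3d and Cd3g). Under the fold minimum, all 5 passed the limma adjusted p between TZM and CD8a+DC. Higher in TZM were Cd3d (0.79, adjusted p = 0.0018), Cd3e (0.53, adjusted p = 0.017), Cd3g (0.87, adjusted p = 0.026) and Cd2 (0.37, adjusted p = 0.0094). Cd5 was lower in TZM (-0.68, adjusted p = 0.0076). Of 5 measured B cell markers, Cd79b was called higher (2.65) and Ms4a1 lower (-2.29) in TZM than in CD8a+DC. Cd79a (0.79, limma adjusted p = 0.0088) and Pax5 (0.37, limma adjusted p = 0.025) were higher in TZM under the fold minimum. Ebf1 did not pass the adjusted p. The granzyme gene Gzma was at 4.86, 6.15 and 6.02 in TZM and at 3.03 ± 0.08 in microglia and 3.14 ± 0.16 in CD8a+DC (SD, n = 3 each). The T cell receptor component Cd3g was at 3.94, 4.37 and 5.02 in TZM, with replicate 3 highest as for Il2rb, against 3.29 ± 0.05 in microglia and 3.57 ± 0.04 in CD8a+DC, and its 0.87 over CD8a+DC was not called. Over the 6 NK and innate lymphoid markers the mean level was 4.41 to 4.83 in TZM, 3.93 to 4.01 in microglia and 3.97 to 4.02 in CD8a+DC, and over 5 T cell markers it was 5.03 to 5.38, 4.37 to 4.40 and 4.76 to 4.88. Their part in the Il2rb and Il2ra levels was not tested.

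**Figure D4:**
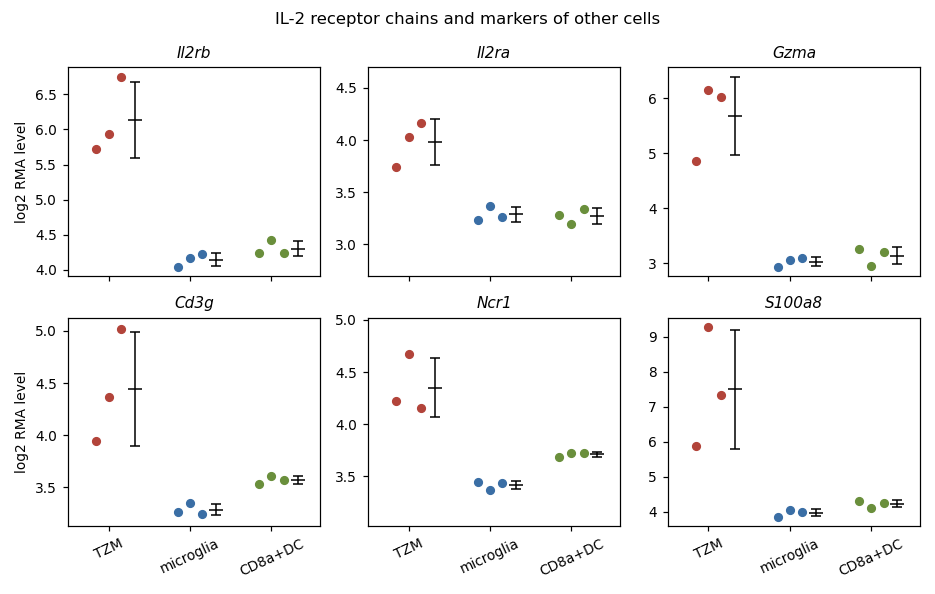
Log2 RMA level (y axis, own scale in each panel) of the IL-2 receptor chains and of 4 markers of other cells in the 3 arrays each of TZM, microglia and CD8a+DC (x axis), replicates 1 to 3 from left to right, with black bars for mean and SD. In all 6 panels the TZM arrays lie above the other populations, and S100a8, a neutrophil marker, spreads from 5.89 to 9.28 among them.

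Il21r, the private chain for IL-21, was present in all 3 populations and highest in TZM. It was at 9.44, 9.15 and 9.55 in TZM, 8.84, 8.98 and 8.82 in microglia and 7.82, 8.06 and 7.98 in CD8a+DC. The populations did not overlap. TZM were above CD8a+DC by 1.42 (SE 0.11, adjusted p = 3.1e-05), which was called. The 0.50 over microglia (adjusted p = 0.014) and the 0.92 of microglia over CD8a+DC (adjusted p = 0.00032) were under the fold minimum.

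Il15ra encodes the chain that holds IL-15 on the surface and presents it to neighbouring cells. It was at 6.53, 6.49 and 6.44 in TZM, 5.90, 5.97 and 5.62 in microglia and 7.44, 7.39 and 7.30 in CD8a+DC. The populations did not overlap, with CD8a+DC highest and microglia lowest. Microglia were below CD8a+DC by 1.55 on the log2 scale (log2 fold change -1.55, SE 0.09, adjusted p = 4.2e-06). TZM stood between, at -0.89 from CD8a+DC (adjusted p = 0.00018) and 0.66 from microglia (adjusted p = 0.0012), neither reaching the fold minimum. The ligand gene Il15 was at 7.13, 7.11 and 6.24 in TZM, 6.78, 6.33 and 6.75 in microglia and 8.28, 8.05 and 7.73 in CD8a+DC. It was likewise highest in CD8a+DC, with log2 fold changes of -1.19 in TZM (adjusted p = 0.011) and -1.40 in microglia (adjusted p = 0.0038), the first of which was lost without TZM replicate 3.

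Il7r, which binds IL-7 and, with Crlf2, thymic stromal lymphopoietin, ran the other way. It was at 5.92, 6.80 and 6.50 in TZM, 7.80, 7.87 and 8.18 in microglia and 7.14, 7.14 and 6.85 in CD8a+DC. TZM arrays were the lowest and microglia arrays the highest, with no overlap. TZM were below microglia, with -1.55 as the log2 fold change (SE 0.21, adjusted p = 0.0011). For TZM over CD8a+DC it was -0.64 (adjusted p = 0.075), and for microglia over CD8a+DC 0.91 (adjusted p = 0.014), neither called. Il9r, the receptor for the mast cell growth factor IL-9, ranged only from 4.58 to 5.06.

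IL-4 acts through Il4ra paired with the common gamma chain or with Il13ra1, and IL-13 through Il4ra paired with Il13ra1. Il4ra was at 8.36, 8.61 and 8.88 in TZM, 8.89, 8.69 and 8.90 in microglia and 8.40, 8.70 and 8.61 in CD8a+DC. The populations overlapped, and all 3 intervals lay within 0.6 of zero: -0.27 to 0.36 for TZM over CD8a+DC, -0.53 to 0.10 for TZM over microglia and -0.06 to 0.57 for microglia over CD8a+DC. The partner chain differed between macrophages and dendritic cells. Il13ra1 was at 8.77, 8.99 and 8.47 in TZM, 8.59, 8.68 and 8.35 in microglia and 6.70, 5.91 and 6.35 in CD8a+DC. TZM and microglia overlapped, and both lay above every CD8a+DC array. The log2 fold change over CD8a+DC was 2.42 in TZM (SE 0.21, adjusted p = 5.5e-05) and 2.22 in microglia (SE 0.21, adjusted p = 6.8e-05), while TZM over microglia gave 0.20 (95% interval -0.28 to 0.68). The decoy chain Il13ra2 was at 2.79 to 3.18, near the low end of the scale.

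The IL-6 receptor Il6ra was graded across the populations. It was at 8.64, 7.86 and 8.48 in TZM, 9.27, 9.47 and 9.11 in microglia and 7.21, 7.76 and 7.18 in CD8a+DC. No arrays of different populations overlapped, and microglia were highest. Microglia were above CD8a+DC by 1.90 (SE 0.23, adjusted p = 0.00032). TZM lay between at nearly equal distances, 0.94 above CD8a+DC (SE 0.23, adjusted p = 0.019) and -0.96 from microglia (SE 0.23, adjusted p = 0.019). Both are just under the fold minimum, and which of them passes it depends on single arrays: without TZM replicate 2 the first was 1.18 (adjusted p = 0.0031), and without TZM replicate 1 the second was -1.11 (adjusted p = 0.018).

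The partner chain of Il6ra and the inhibitor Socs3 had their highest means in microglia. Il6st, which encodes gp130, was at 8.61, 8.60 and 8.61 in TZM, 10.01, 9.53 and 10.06 in microglia and 8.99, 8.65 and 8.84 in CD8a+DC. It was lower in TZM than in microglia (log2 fold change -1.26, SE 0.14, adjusted p = 0.00035). Microglia were above CD8a+DC by 1.04 (SE 0.14, adjusted p = 0.00069), a call that ended without CD8a+DC replicate 2 and without microglia replicate 1 or 3. Socs3, the inhibitor that binds gp130 and is induced by IL-6 and IL-10, was at 8.09, 7.58 and 8.09 in TZM, 9.47, 9.52 and 9.41 in microglia and 6.30, 6.60 and 6.46 in CD8a+DC. It followed the order of Il6ra without overlap, and was called in all 3 comparisons, at 1.46 for TZM over CD8a+DC, -1.55 for TZM over microglia and 3.01 for microglia over CD8a+DC. Il6 itself was at 3.35 ± 0.28 in TZM, 5.71 ± 0.20 in microglia and 4.91 ± 0.32 in CD8a+DC (SD, n = 3 each). The mean level of the immediate early genes was highest in microglia as well, and their part in the Socs3 and Il6 levels was not tested. The leukaemia inhibitory factor receptor Lifr, another partner of gp130, was lower in TZM than in microglia by 3.00 on the log2 scale. Il27ra (4.06 to 4.44) and Il31ra (3.25 to 3.42), which use or resemble gp130, stayed flat and uncalled.

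Within the IL-1 family the decoy receptor Il1r2 and the IL-36 receptor Il1rl2 stood out, in different populations. Il1r2 binds IL-1 but lacks the signalling domain. It was at 4.76, 5.42 and 5.33 in TZM, 4.88, 4.20 and 4.35 in microglia and 6.87, 6.33 and 6.30 in CD8a+DC. Every CD8a+DC array lay above all others, and TZM overlapped microglia. Il1r2 was lower in TZM than in CD8a+DC, at -1.32 (SE 0.25, adjusted p = 0.005), and lower in microglia, at -2.02 (SE 0.25, adjusted p = 0.00034).

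Il1rl2 was at 4.41, 4.21 and 4.58 in TZM, 6.37, 6.31 and 6.52 in microglia and 3.50, 3.46 and 3.73 in CD8a+DC. The 3 populations did not overlap, and microglia were far above the rest. TZM over microglia gave -2.00 (SE 0.11, adjusted p = 5.7e-06) and microglia over CD8a+DC gave 2.83 (SE 0.11, adjusted p = 3.9e-07). TZM exceeded CD8a+DC by 0.83 (adjusted p = 0.00089), under the fold minimum. Il1rap, the accessory chain that IL-36 and IL-1 receptors need to signal, was at 4.50 ± 0.13 in TZM, 4.89 ± 0.31 in microglia and 4.72 ± 0.03 in CD8a+DC (SD, n = 3 each), with no call.

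The remaining IL-1 family genes that were measured were low and flat. Il1r1 and Il1rl1 had no probe set with a single symbol and were not analysed. Il18rap stayed between 3.63 and 3.64, Il1rapl1 between 3.09 and 3.38 and Il1rapl2 between 2.77 and 3.02. Il18r1, the IL-18 receptor, was at 3.43, 3.44 and 3.99 in TZM against 3.29 ± 0.06 in microglia and 3.29 ± 0.03 in CD8a+DC, a difference of 0.33 in both comparisons that was not called (adjusted p = 0.16 over microglia and 0.15 over CD8a+DC).

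Several ligands of this family and their soluble antagonists were called. Il1b was at 8.70, 7.86 and 8.43 in TZM, 10.40, 9.30 and 9.71 in microglia and 11.47, 11.38 and 11.43 in CD8a+DC, so it was highest where Il1r2 was highest (log2 fold change in TZM -3.10 over CD8a+DC, adjusted p = 9.2e-05). Il1a was lowest in CD8a+DC and highest in microglia, with 10.67 ± 0.12 in TZM, 11.87 ± 0.22 in microglia and 4.14 ± 0.54 in CD8a+DC (SD, n = 3 each). The IL-1 receptor antagonist Il1rn was at 6.74, 7.86 and 7.10 in TZM, 5.25, 5.18 and 5.29 in microglia and 5.10, 5.08 and 5.11 in CD8a+DC. The IL-18 binding protein Il18bp was at 10.85, 10.90 and 10.79 in TZM, 6.97, 6.97 and 6.31 in microglia and 6.73, 6.60 and 6.81 in CD8a+DC. Both were higher in TZM than in each other population without overlap. Il1rn exceeded CD8a+DC by 2.13 (SE 0.23, limma adjusted p = 0.00025) and microglia by 1.99 (SE 0.23, limma adjusted p = 0.00043). Il18bp exceeded CD8a+DC by 4.13 (SE 0.17, limma adjusted p = 6e-07) and microglia by 4.10 (SE 0.17, limma adjusted p = 7.8e-07). With Il22ra2, 3 soluble antagonists of interleukins were thus highest in TZM, a grouping made after their values were seen. The decoy chains went otherwise: Il1r2 was highest in CD8a+DC (mean 6.50, against 5.17 in TZM), and Il13ra2 was flat and not called. Il18 was higher in TZM as well, by 2.77 over CD8a+DC and 2.05 over microglia.

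**Figure D5:**
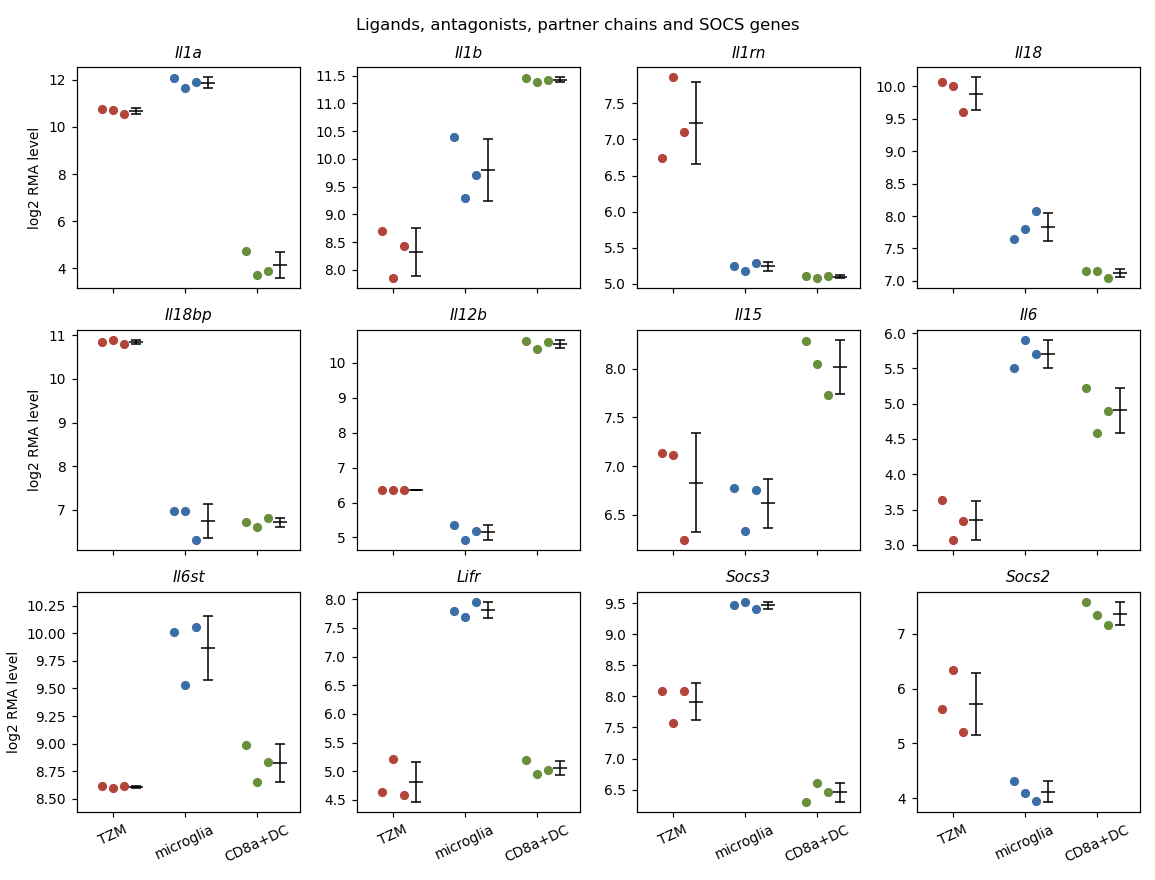
Log2 RMA level (y axis, own scale in each panel) of 12 ligand, antagonist, partner chain and SOCS genes in the 3 arrays each of TZM, microglia and CD8a+DC (x axis), replicates 1 to 3 from left to right, with black bars for mean and SD. Il1rn and Il18bp are highest in the TZM arrays, Il6st, Lifr and Socs3 in the microglia arrays, and Il1b, Il12b, Il15 and Socs2 in the CD8a+DC arrays.

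Il17ra, the chain shared by the IL-17 receptors, was highest in microglia. It was at 8.01, 7.08 and 8.08 in TZM, 9.04, 9.49 and 8.78 in microglia and 7.37, 7.80 and 7.55 in CD8a+DC. Microglia lay above all others, and TZM spread around CD8a+DC. The log2 fold change was -1.38 for TZM over microglia (SE 0.28, adjusted p = 0.0095) and 1.53 for microglia over CD8a+DC (SE 0.28, adjusted p = 0.004), and TZM over CD8a+DC gave 0.15 (95% interval -0.50 to 0.81). Its partner for IL-17A, Il17rc, was between 5.51 and 5.94 in every array, and Il17rb, Il17rd and Il17re varied by less than 0.4 each. The adaptor gene Traf3ip2, which encodes Act1, was lower in TZM than in CD8a+DC (-1.05, SE 0.19, adjusted p = 0.0039), a call that ended without TZM replicate 2 and without CD8a+DC replicate 2.

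The chains that pair with the common beta chain were not called. Il3ra was at 6.42, 6.21 and 6.78 in TZM, 6.17, 5.97 and 6.07 in microglia and 6.25, 6.34 and 6.26 in CD8a+DC. The populations lay close together, and the 0.40 of TZM over microglia had an adjusted p of 0.071. Il5ra ranged from 3.22 to 3.37. The beta chain genes themselves were lower in microglia than in CD8a+DC, Csf2rb at -1.66 (SE 0.14, adjusted p = 3.7e-05) and Csf2rb2 at -1.07 (SE 0.15, adjusted p = 0.00088, but not called without CD8a+DC replicate 1). Csf2rb was higher in TZM than in microglia by 1.23 (SE 0.14, adjusted p = 0.00036).

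TZM replicate 2 stood apart in several of these genes. Among the TZM arrays it had the lowest level of Il6ra, Il10rb, Il17ra, Il21r and Il22ra2 and of the mean over the 13 immediate early genes (9.43), and the highest of Il7r, S100a8 (9.28) and Il1rn. The 8 neutrophil markers had a mean level of 4.69, 5.72 and 5.25 in TZM replicates 1 to 3, 4.11 to 4.22 in microglia and 4.21 to 4.33 in CD8a+DC, and their part in these levels was not tested. Of these markers S100a8 and S100a9 were called. Ngp was at 4.98, 5.75 and 5.43 in TZM, against means of 4.54 in microglia and 4.45 in CD8a+DC, and passed the adjusted p but not the fold minimum. Camp averaged 4.74 in TZM, 4.39 in microglia and 4.36 in CD8a+DC and was not called, and neither were Ly6g, Mpo, Elane and Retnlg. Without TZM replicate 2 the differences stayed on the same side: Il10rb in TZM over CD8a+DC was 1.99, Il17ra in TZM over microglia -1.05 and Il7r in TZM over microglia -1.75.

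In the wider pathway, of 31 measured ligands and antagonists, 5 were higher and 5 lower in TZM than in CD8a+DC, and 5 were higher and 4 lower than in microglia. Between microglia and CD8a+DC, 1 was higher and 3 were lower in microglia. Of all genes, 8.74%, 7.65% and 11.2% were called in these 3 comparisons. Il10 was at 6.22, 6.34 and 4.98 in TZM, 5.95, 4.38 and 5.08 in microglia and 4.53, 5.06 and 4.64 in CD8a+DC. Its arrays overlapped and it was not called, except over CD8a+DC without TZM replicate 3. Of 12 shared chains and other receptors outside the name rule, 2 were higher in TZM than in CD8a+DC. These were the transforming growth factor beta receptors Tgfbr1 (2.61) and Tgfbr2 (1.94). Against microglia, 1 of the 12 was higher and 3 were lower in TZM. Between microglia and CD8a+DC, 4 were higher and 3 lower in microglia. In 9 JAK and STAT genes, Jak2 and Tyk2 were the only calls, lower than in CD8a+DC in both TZM and microglia (microglia -2.32 and -1.48). Of 10 TIR and IL-17 adaptors, Traf3ip2 was called as above and Irak2 was lower in TZM than in microglia (-1.18), while Myd88 was not called at 7.35 ± 0.46 in TZM, 7.85 ± 0.28 in microglia and 7.40 ± 0.26 in CD8a+DC. Of 8 SOCS genes, Socs2, a target of STAT5, mirrored Socs3, at -1.65 for TZM over CD8a+DC, 1.60 for TZM over microglia and -3.25 for microglia over CD8a+DC.

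In all, 19 of the 35 receptor genes had a mean under 6 in every population, with single arrays from 2.77 to 5.94, and none of these was called. Their 3 population means lay a median of 0.08 and at most 0.71 apart, the last for Il2ra. The median level over all genes was 4.90 to 5.02 in the 9 arrays, so levels under 6 were usual here. The share of all genes under 6 in every population was not computed. Of the 16 genes with a mean of at least 6 in some population, Il4ra, Il10ra, Il3ra and Il20rb were not called. No detection call was used, so a low flat level does not show that a transcript is absent.

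In the RefSeq annotation of GRCm38.p6, 14 of the 35 genes form 8 pairs of neighbours, with at most 1 coding gene between. Il22ra2 adjoins Il20ra on chromosome 10, Il21r adjoins Il4ra on chromosome 7, Il15ra adjoins Il2ra on chromosome 2 and Il12rb2 adjoins Il23r on chromosome 6, and in each of these pairs the first gene was called in some comparison and the second in none. On chromosome 1 the order is Il1r2, Il1rl2, Il18r1 and Il18rap. There Il1r2 was highest in CD8a+DC, Il1rl2 in microglia, and Il18r1 and Il18rap were not called. Neither gene of the pair Il17re and Il17rc on chromosome 6 was called.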

How the data were processed

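RNA of 9 arrays was measured on an Affymetrix mouse gene array. The authors deposited log2 levels. Per the submitters' processing notes they came from Affymetrix Expression Console 1.3.1 and RMA, which corrects background, normalizes arrays and summarises probes. The table held 35556 probe sets with values from 2.04 to 13.6. In the platform annotation used here 21789 probe sets had 1 symbol, 1621 had several and 12146 had none. Those with 1 symbol were kept, with symbols updated through RefSeq by Entrez identifier for 21698 of them and the brightest probe set per gene, which left 19938 genes. Receptor chains without such a probe set, Il2rg, Il1r1 and Il1rl1 among them, were not analysed here. All 35 receptor genes were matched, and 3 of them (Il17rd, Il20rb, Il22ra1) had several probe sets.

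All 9 arrays entered 1 linear model per gene with population as its term (lmFit and eBayes of limma 3.58.1 under R 4.3.3), with p-values adjusted over all genes of a comparison. Intervals are 95% limits of this fit. Tested on simulated data of 19938 genes, the model called 93% of true log2 changes of 1.5 and 99% of true changes of 2 for TZM over CD8a+DC, with 1 false call. The simulation drew normal values with a spread per gene averaged over the populations. It changed 200 genes, in TZM only and whatever their level. These rates therefore need not hold for the measured data, least of all for dim genes. Array medians were 4.90 to 5.02. The number of arrays limits the precision, and no 2 arrays were identical. The receptor genes, the gene lists and the tests were chosen with earlier results of these data known. Genes called with a mean of at least 6 in 1 population were described in full, other receptor genes by their range, and of other lists up to 4 called genes per comparison by size of change besides Il6st, Csf2rb, Csf2rb2, Myd88, Socs3, Il1b, Il10, Il6, Il1rn and Il18bp. Alternatives were no minimum fold change, a level filter (at least 6 in at least 3 arrays), quantile normalization, median centring, the mean of probe sets, only the groups compared, trended and robust eBayes, a block for the replicate number, and leaving out 1 array at a time.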

Additional observations from a re-analysis of the deposited data

How the results depend on the processing

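All 20 calls of receptor genes kept their direction and stayed called under each of the 17 alternatives that tested them. Il2rb was not tested under the level filter, which left 15 receptor genes with 5 called between TZM and CD8a+DC, 5 between TZM and microglia and 8 between microglia and CD8a+DC. With no minimum fold change the counts were 12, 12 and 11, the first and second of which moved by more than 1.5 times. Leaving out single arrays gave 6 to 7, 6 to 7 and 8 calls. With the replicate number as a block they stayed at 6, 6 and 8. Arrays of the same number correlated at -0.16 to 0.12 in their deviations from the group means (9 pairs), and arrays of different number at -0.21 to 0.20 (18 pairs), so the numbers were not taken to pair the arrays. Uncalled differences that crossed the fold minimum under quantile normalization were Il6ra in TZM over microglia (-1.07) and Il21r in microglia over CD8a+DC (1.01). No scaling moved the median over all genes by more than 0.1. For the 19 dim genes no detection call separates signal from background, which limits what can be seen of them.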
